A study of Rattus norvegicus with 6 samples.

Results

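The mitochondrial ribosomal proteins were taken as every gene of the deposited count table whose name begins with Mrpl or Mrps followed by a digit. This rule found 76 of the 33566 genes in the table, 45 named Mrpl and 31 named Mrps. RNA had been sequenced from primary rat brain microvascular endothelial cells (rBMECs), the cells that line brain capillaries and form the blood–brain barrier. They came from SD rats aged 18 to 22 days, from the cerebral cortex by the labels and the forebrain by the study's methods, and were purified in culture, passaged once and kept in medium with endothelial growth supplements. In the Hcy group, 3 libraries came from cells given 100 µM homocysteine (Hcy, an amino acid intermediate of methionine metabolism) for 24 h, and in the Veh group 3 libraries came from cells given the solvent, ddH2O. The same label also names a prepared Hcy solution of 50 µM, so the dose is taken as 100 µM with that difference unresolved. Neither group carried a transgene or any other agent named in the labels. The labels give 3 biological replicates per group but do not say whether these came from separate animals, so p-values measure the spread between these cultures.

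The mitochondrial ribosome translates the few messages encoded by mitochondrial DNA, all of which specify subunits of the respiratory chain and ATP synthase. Its ribosomal RNAs come from mitochondrial DNA, whereas its proteins are encoded in the nucleus, made on cytosolic ribosomes and imported. The small subunit binds the message and holds the decoding centre, and the large subunit joins amino acids and feeds the new chain through an exit tunnel to the inner membrane. Some proteins of each subunit have relatives in the bacterial ribosome and others are found in mitochondria alone. In brain endothelium, oxidative metabolism supplies part of the energy for the barrier's transport functions.

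Libraries held 14024997 to 16764584 counted reads, and 3 counts, taken as the floor of detection, corresponded to 0.178 to 0.215 CPM (the usual unit of counts relative to library size, here scaled with edgeR's TMM factors). Of 12 endothelial markers in the table, Cdh5 and Vwf were abundant, but Cldn5, a defining tight junction protein of this barrier, had 0 counts in all 6 libraries. Western blots of this protein in rBMECs are reported by the study. The missing counts are therefore not read as a lack of this gene's expression in the cells, and their cause was not tested. Pecam1 and Abcb1a were not analysed here. The summed level of the endothelial markers was 9748 to 10130 CPM in Hcy and 8301 to 9894 CPM in Veh, the lowest value being that of Veh 3. Of 11 endothelial markers tested, 0 passed edgeR's test with all libraries (2.34% of all genes), and at an unadjusted p of 0.05 3 were higher and 4 lower in Hcy (13.4% of all genes in both directions). Without Veh 3, 5 passed, Vwf and Kdr higher and Slc2a1, Eng and Tek lower, against 6.67% of all genes. Smooth muscle markers moved with the groups. Of 5 tested, 3 (Tagln, Acta2 and Cnn1) were lower in Hcy (4 of 5 passed without Veh 3), and the summed level of 6 was 685 to 712 CPM in Hcy against 1134 to 1362 CPM in Veh. Fewer cells of a type and less RNA per cell cannot be told apart in such data, and the part of these cells in the results was not tested. Pericyte markers lay in the other direction at low levels, with a summed level of 5.31 to 7.99 CPM in Hcy against 3.89 to 4.91 CPM in Veh, and 0 of 8 passed the test. Fibroblast markers summed to 44.9 to 68.7 CPM in Hcy and 63.5 to 91.2 CPM in Veh, neuron markers to 6.85 to 9.77 and 5.22 to 7.30 CPM, and oligodendrocyte markers to 10.6 to 12.4 CPM in Hcy and 11.3 CPM in each Veh library. Of the 4, 2 and 3 of these that were tested, 0 passed. The summed level of astrocyte markers stayed at or under 1.66 CPM, and that of microglia and leukocyte markers at or under 0.900 CPM.

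One library stood apart. In Veh 3, short genes were high relative to the other 5 libraries. Among other protein-coding genes with a mean of at least 5 CPM, the median deviation of Veh 3 from a gene's mean over the 6 libraries (log2 CPM) was 0.33 for the 265 genes of up to 600 bases. It was 0.01 for genes of 2000 to 3000 bases and -0.19 for the 1156 genes over 5000 bases. The mitochondrial ribosomal protein genes are short, with a median listed length of 1083.5 bases against 2225 bases for all genes tested. The median of each group of genes is therefore also given without Veh 3.

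The 76 genes comprised 74 whose summed counts reached 10, which were tested among 14603 genes. The other 2, both listed as Mrps21l on chromosome 18, had 0 counts in all 6 libraries. By subunit, the 74 comprised 26 proteins of the small subunit and 47 of the large subunit. Mrpl9, Mrpl11, Mrpl24 and Mrpl30 of the large subunit were not analysed here. The large subunit includes Mrps30 and Mrps18a, whose names recall an earlier assignment. The remaining gene, Mrps36, encodes a subunit of the alpha-ketoglutarate dehydrogenase complex in spite of its name. All 76 listed genes together lay on 19 chromosomes, with 12 each on chromosomes 1 and 10.

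The start regions of these genes are shown for the members the results turn on, since many carry a short motif near the start site. Sequences are from RefSeq on GRCr8 and run 5′ to 3′ on the gene's strand, from 250 bases before the start to 50 bases after it, and capitals mark a motif. The motif AAGATGGC is the core recognised by YY1, a zinc finger factor linked to mitochondrial genes. It also occurs in an initiator element in which the ATG is the start codon. CCGGAAG is the core of sites for ETS factors such as GABPA, and the pair of GCGC words with any 2 bases between them is the site of NRF1, both regulators of nuclear genes for mitochondrial proteins. Mrps30, at chr2:52195855-52196154 on the minus strand, has the lowest adjusted p among members with an entry of their own. Mrps12, the member with the lowest adjusted p of all, had no entry. The window of its head-to-head neighbour Sars2 is shown instead, at chr1:93156264-93156563 on the plus strand. By the listed positions, most bases before the Sars2 start lie within the Mrps12 gene. Motifs marked there are placed by the Sars2 start and are not read for Mrps12. Mrpl46, at chr1:142116981-142117280 on the minus strand, starts head to head with another member, Mrps11. Mrpl17, at chr1:169575650-169575949 on the minus strand, and Mrpl33, at chr6:30553938-30554237 on the minus strand, had the highest levels per length.
Mrps30: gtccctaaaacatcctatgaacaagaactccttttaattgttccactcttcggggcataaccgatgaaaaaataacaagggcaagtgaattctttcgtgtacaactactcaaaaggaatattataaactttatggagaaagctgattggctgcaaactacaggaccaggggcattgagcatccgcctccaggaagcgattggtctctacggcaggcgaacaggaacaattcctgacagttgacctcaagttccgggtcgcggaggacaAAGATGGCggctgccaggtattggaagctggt
Sars2: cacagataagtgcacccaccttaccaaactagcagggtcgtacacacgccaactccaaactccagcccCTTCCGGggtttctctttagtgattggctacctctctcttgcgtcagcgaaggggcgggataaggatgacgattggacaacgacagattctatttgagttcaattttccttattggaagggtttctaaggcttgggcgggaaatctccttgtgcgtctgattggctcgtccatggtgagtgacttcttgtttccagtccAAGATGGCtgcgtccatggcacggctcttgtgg
Mrpl46: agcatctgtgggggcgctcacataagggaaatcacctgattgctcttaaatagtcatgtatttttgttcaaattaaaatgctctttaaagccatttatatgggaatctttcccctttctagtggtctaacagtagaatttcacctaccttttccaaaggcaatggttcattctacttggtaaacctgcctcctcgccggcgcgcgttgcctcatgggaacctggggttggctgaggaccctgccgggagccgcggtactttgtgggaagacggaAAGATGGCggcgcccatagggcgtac
Mrpl17: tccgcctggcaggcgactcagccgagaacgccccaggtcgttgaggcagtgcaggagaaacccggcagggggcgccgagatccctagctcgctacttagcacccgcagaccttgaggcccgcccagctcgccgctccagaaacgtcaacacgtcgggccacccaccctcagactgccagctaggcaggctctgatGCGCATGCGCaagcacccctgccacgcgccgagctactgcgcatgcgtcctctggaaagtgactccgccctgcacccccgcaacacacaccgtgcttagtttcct
Mrpl33: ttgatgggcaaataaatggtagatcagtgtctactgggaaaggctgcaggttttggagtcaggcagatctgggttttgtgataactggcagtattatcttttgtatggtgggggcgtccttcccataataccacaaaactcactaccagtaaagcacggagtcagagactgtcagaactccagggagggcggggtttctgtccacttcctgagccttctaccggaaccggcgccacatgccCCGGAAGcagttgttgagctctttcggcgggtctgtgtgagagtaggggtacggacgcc

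Of the tested members, 59 matched a RefSeq entry, and 34 of these (57.6%) held at least 1 of the 3 motifs on either strand, against 15.7% of all 33469 windows and 31.8% of the 9906 windows of genes tested here. AAGATGGC stood in 15 of the 59 (25.4%), against 3.17% of all windows and 5.73% of those of tested genes. Its position was also narrow, since 13 of the 15 sites began within 50 bases of the start and the median first base was 17. CCGGAAG stood in 20 (33.9%), against 8.75% of all windows and 17.8% of those of tested genes. The NRF1 pair stood in 11 (18.6%), against 5.58% and 13.2%. AAGATGGC and CCGGAAG can share the letters AAG, but in the 6 members that held both the sites lay apart. A match describes the letters in the window and is not evidence of binding. The median log2 fold change, Hcy against Veh, was -0.14 in the 15 members with AAGATGGC and -0.10 in the 44 without it, and -0.05 and 0.02 without Veh 3. It was -0.09 with CCGGAAG and -0.14 without, or 0.02 and -0.0039 when Veh 3 was left out. It was -0.08 with the NRF1 pair and -0.12 without, or 0.02 and 0.0067 when Veh 3 was left out. Differences between these medians were not tested.

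Many members also started close to a neighbour on the opposite strand. By the positions of the table, 21 of 74 (28.4%) had such a head-to-head neighbour within 1000 bases, against 10.4% of the 13147 protein-coding genes tested. The start of Mrps12 lay 16 bases from that of Sars2, the mitochondrial seryl-tRNA synthetase. The start of Mrpl43 lay 47 bases from that of Twnk, the mitochondrial DNA helicase. Mrpl46 and Mrps11, a large-subunit and a small-subunit gene, started 72 bases apart. The log2 fold change of Sars2 was -0.05 ± 0.18 (SE), that of Twnk -0.12 ± 0.11, that of Mrpl46 -0.05 ± 0.12 and that of Mrps11 -0.18 ± 0.16, and the 4 had adjusted p of 0.71 or higher in edgeR's quasi-likelihood test. Positions of 11 tested members overlapped another gene, and a strand setting for the counting is not given in the sources used here, so such pairs may have shared or lost reads.

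Nearly all members were expressed at levels above the typical gene. On a scale of CPM per kilobase of listed length, the median of the 74 was 25.6, against 6.30 for all genes tested, and 70 of the 74 lay above the latter. Levels were similar to each other, with 51 members within 2-fold of the members' median. The 72 members with at least 100 summed counts spanned 60.7-fold.

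**Figure D1:**
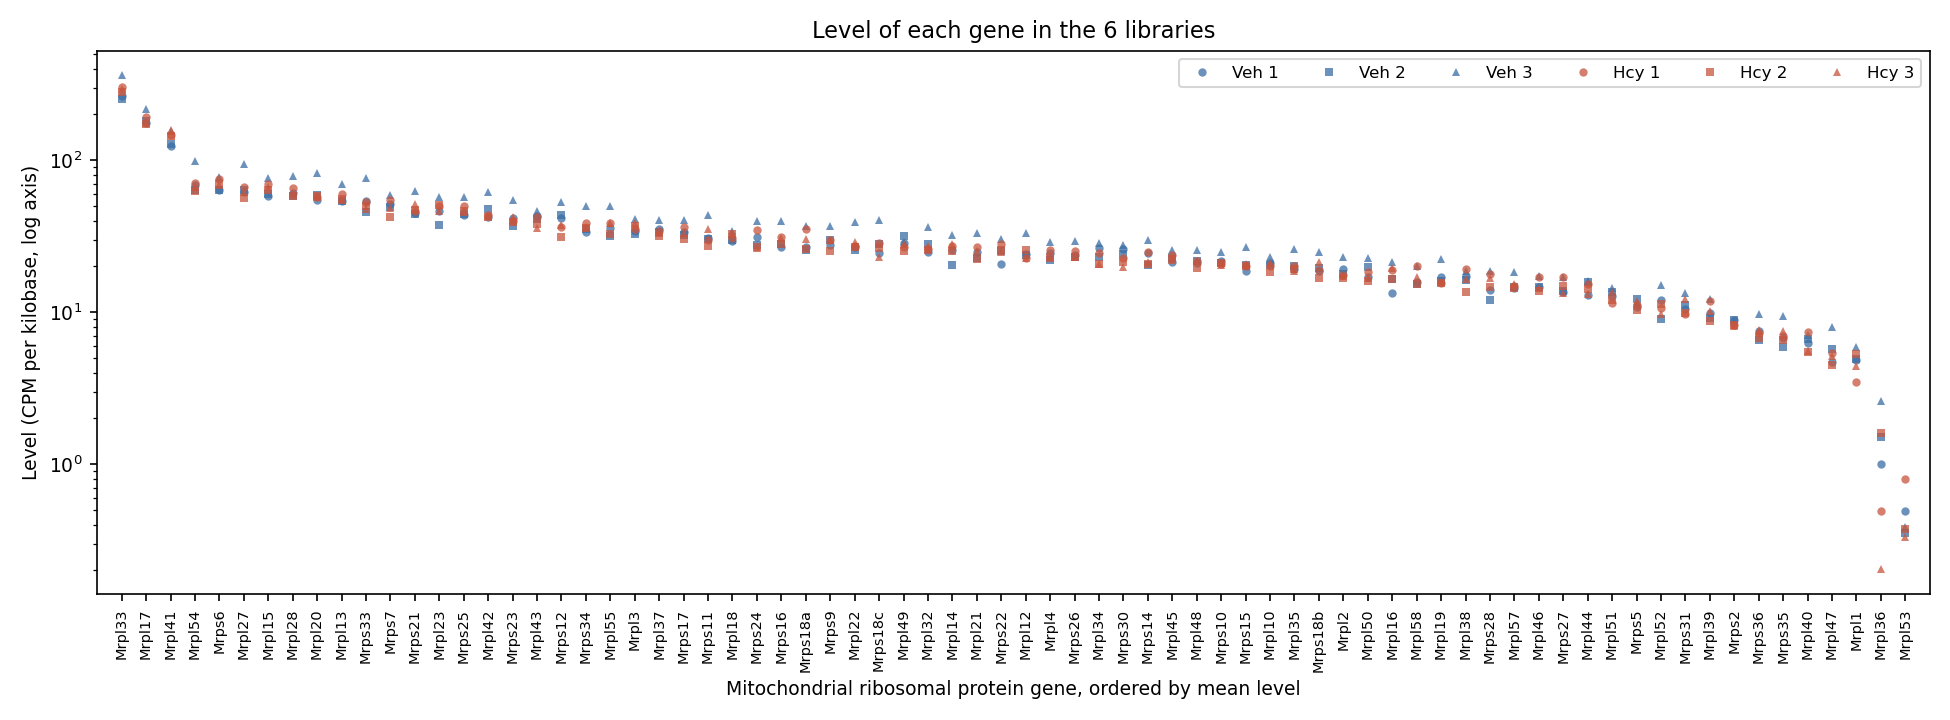
Level of each of the 74 tested members in each library, in CPM per kilobase on a log axis, ordered by the mean over the 6 libraries (circle, square and triangle, replicates 1, 2 and 3; blue, Veh; red, Hcy). Mrpl33, Mrpl17 and Mrpl41 lie above the rest, Mrpl36 and Mrpl53 lie far below, and the triangle of Veh 3 is the topmost point for 66 of the 74 genes.

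The highest level was that of Mrpl33, a very small protein near the exit site of the large subunit, at 292 CPM per kilobase with a range of 254 to 360 over the libraries. Mrpl17, which lies at the tunnel exit, followed at 186 (173 to 216), and Mrpl41, a protein found in mitochondria alone, at 142 (125 to 157). These ranges did not overlap, so on this scale the order of these 3 held in every library. The rank of Mrpl33 rests on its listed length of 236 bases, the shortest of the members. In CPM not divided by length, Mrpl33 lay below Mrpl17 and Mrpl41 in every library. The next, Mrpl54 of the stalk region, had 71.5 (63.1 to 98.1), and its range overlapped those of Mrps6 at 69.4 and Mrpl27 at 67.1.

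At the other end, Mrpl1, a protein of the mobile stalk by the exit site, had 4.82 CPM per kilobase (3.49 to 5.92). Mrpl36, a small protein of the large subunit, had 1.23 CPM per kilobase, from 2, 7 and 1 counts in Hcy 1 to 3 and, in Veh 1 to 3, from 5, 7 and 11. Mrpl53, of the stalk region, had 0.456 CPM per kilobase, from 4, 2 and 2 counts in Hcy and, in Veh, from 3, 2 and 2. Most of the latter values are at or under the floor, so the estimates for Mrpl53 carry no reading, and that of Mrpl36 (-1.14 ± 0.75 SE, adjusted p = 0.589, edgeR) was not resolved at this depth. The counts of both were far below those of the 72 others.

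The question of the comparison was whether Hcy changed the expression of these genes. No member passed an adjusted p of 0.05 in edgeR's quasi-likelihood test, with 0 of 74 higher in Hcy (1.32% of all genes tested) and 0 of 74 lower (1.01% of all genes). With a 2-fold difference also required, the count was again 0, against 0.486% of all genes. DESeq2 gave 0 members, against 2.4% of all genes higher, 1.79% lower and 4.19% in both directions. At an unadjusted p of 0.05, 2 members (2.70%) passed in edgeR, both lower, against 5.95% of all genes lower, 7.44% higher and 13.4% in both directions. The lowest adjusted p of a member was 0.168, that of Mrps12.

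The precision was enough to bound the differences. For the 72 members with at least 100 counts, the standard error of the log2 fold change had a median of 0.13 and ranged from 0.07 to 0.20. Every 95% interval of these 72 lay between -0.74 and 0.51, that is within 2-fold in either direction, and 65 lay within 1.5-fold. The intervals of 2 members, Mrps12 and Mrps30, left out 0. These intervals hold for single genes, without adjustment for the number of genes.

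**Figure D2:**
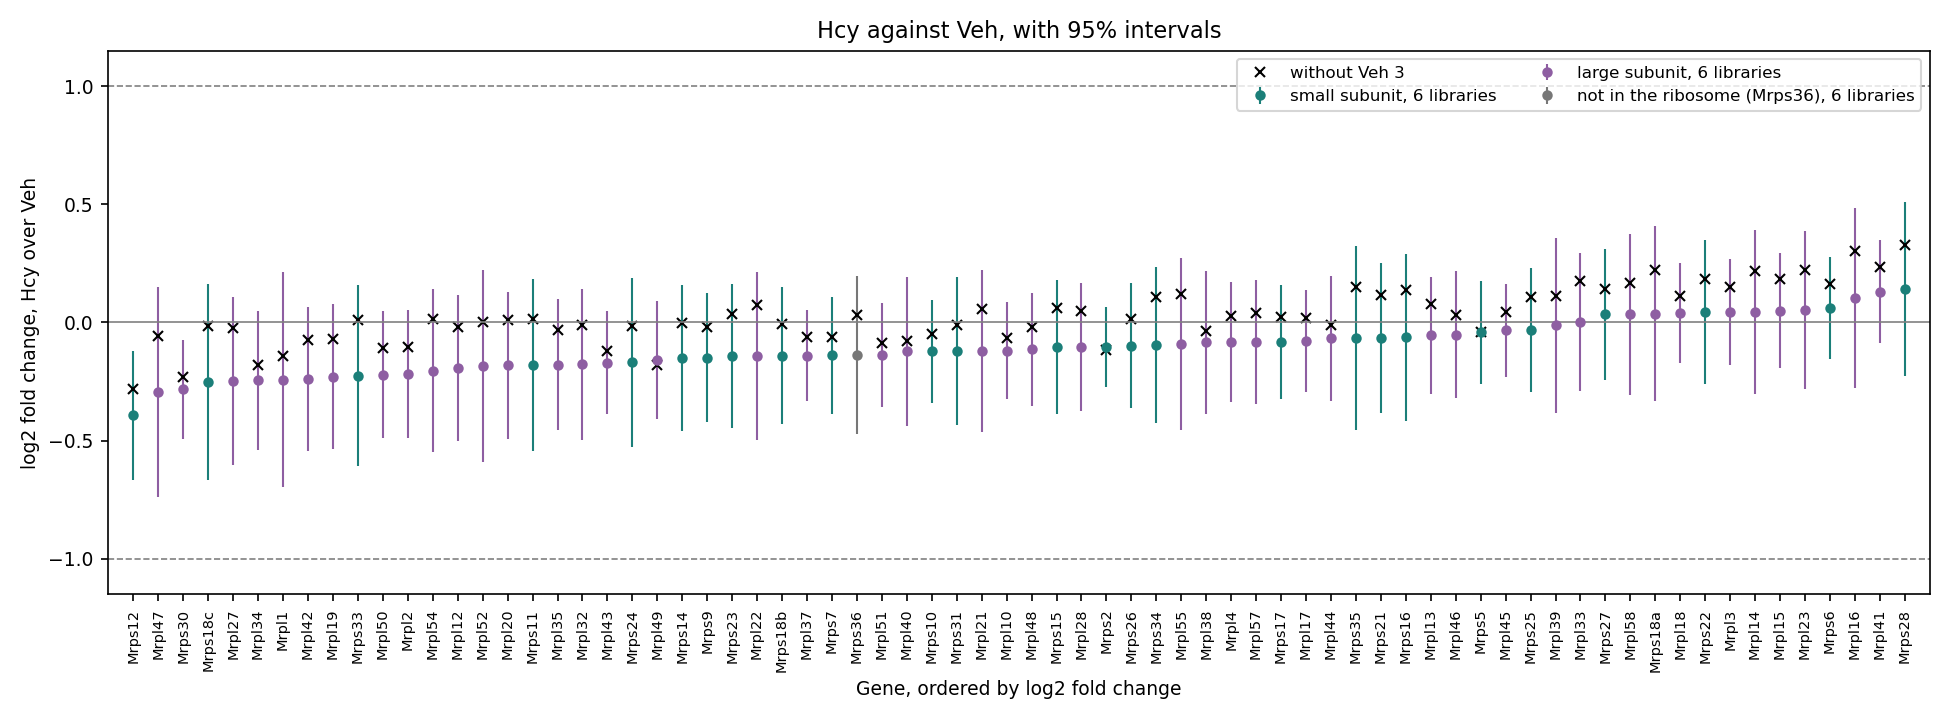
Log2 fold change of Hcy over Veh for the 72 members with at least 100 summed counts, with 95% intervals derived from edgeR's F statistic (teal, small subunit; purple, large subunit; grey, Mrps36), and the estimate without Veh 3 (cross); dashed lines mark 2-fold. Most points lie below 0 and no interval reaches a dashed line, and the crosses lie above the points for most genes and spread on both sides of 0.

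The estimates were small and mostly negative. Of the 74 members, 59 (79.7%) had a log2 fold change below 0, against 53.1% of all genes tested. Their median was -0.12, with quartiles of -0.18 and -0.04, against a median of -0.02 and quartiles of -0.16 and 0.14 over all genes. Without Veh 3 this lean was gone: 33 members lay below 0 and 41 above (50.6% of all genes lay below), and the median was 0.01. In that fit 0 members passed, against 3.48% of 14352 genes higher, 3.18% lower and 6.67% in both directions. At an unadjusted p of 0.05, 6 were higher and 2 lower (10.9% and 10.2% of all genes), and the lowest adjusted p was 0.0687.

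Summed over the 76 genes, the level was 2613, 2400 and 2514 CPM in Hcy 1, 2 and 3, and 2442, 2432 and 3128 CPM in Veh 1, 2 and 3. The Veh 3 value lay above the other 5, which overlapped between the groups. The means were 2509 ± 107 CPM in Hcy and 2667 ± 399 CPM in Veh (SD, n = 3 each), a difference of -158 CPM that is smaller than the SD of Veh. Without Veh 3 the difference was 72.9 CPM in the other direction. As a share of all counted reads, the 76 genes took 0.241 to 0.259% in Hcy and 0.245, 0.247 and 0.306% in Veh.

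The height of Veh 3 was shared by nearly the whole group. Veh 3 held the highest value for 66 of the 74 members (89.2%), whereas it held the highest value for 25.6% of all genes tested, and it was the lowest library for 0 members. The median deviation of the members from their own means was 0.28 in Veh 3, -0.07 in Veh 1 and -0.07 in Veh 2. It was 0.00 in Hcy 1, -0.11 in Hcy 2 and -0.05 in Hcy 3, so the other 5 libraries lay between -0.11 and 0.00 in both groups. Hcy 2 was the lowest library for 27 members, Veh 2 for 18, Veh 1 for 14, Hcy 3 for 12 and Hcy 1 for 3.

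**Figure D3:**
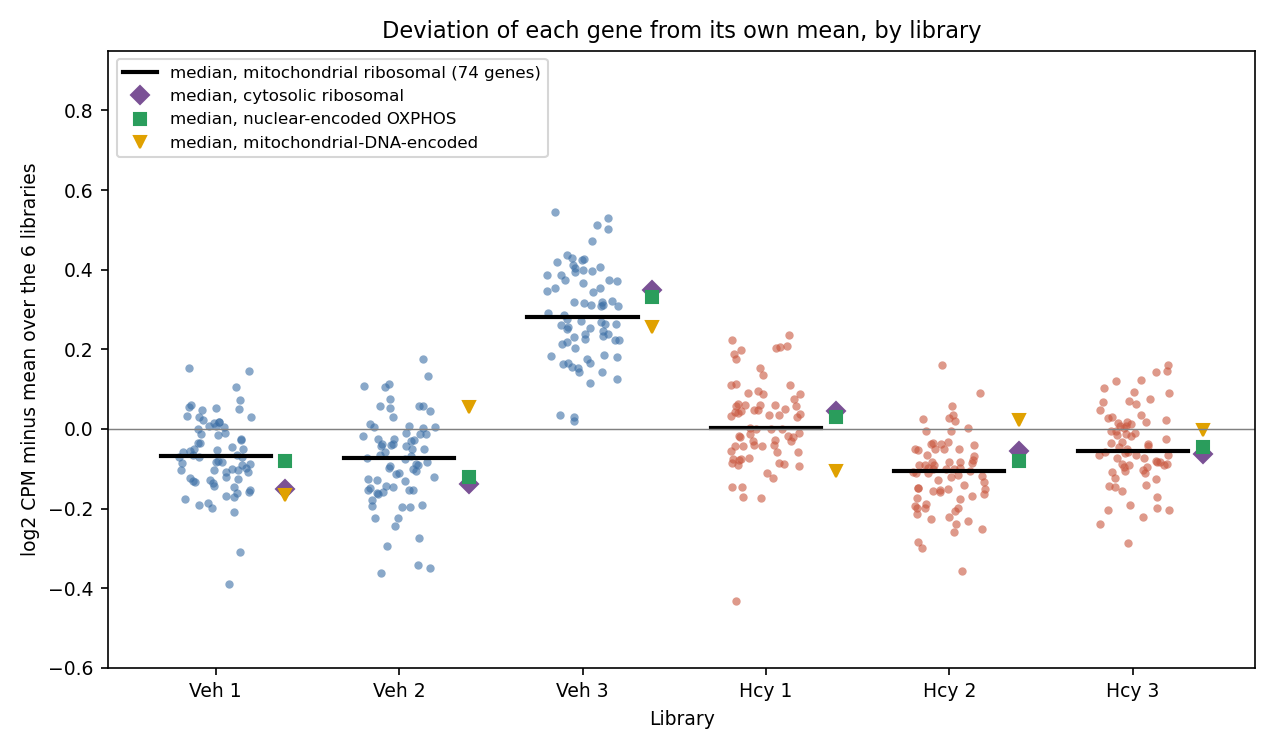
Deviation of each of the 72 members with at least 100 summed counts from its own mean over the 6 libraries (log2 CPM), by library, with the median of all 74 (bar) and of 3 other gene groups (diamond, cytosolic ribosomal proteins; square, nuclear-encoded OXPHOS subunits; inverted triangle, subunits encoded by mitochondrial DNA). The members' median is 0.28 in Veh 3 and between -0.11 and 0.00 in the other 5 libraries, and all 3 other groups are also highest in Veh 3.

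The deviation of Veh 3 fell with gene length, and its values in members and in other genes of the same length are given side by side without a test. In the 7 members of up to 600 bases the median deviation of Veh 3 was 0.28, against 0.33 in other protein-coding genes of that length. It was 0.36 against 0.26 in the 28 members of 600 to 1000 bases, 0.26 against 0.15 in 15 of 1000 to 1500 bases, 0.26 against 0.08 in 13 of 1500 to 2000 bases, and 0.20 against 0.01 in 10 of 2000 to 3000 bases. The longest member, Mrps2 at 4125 bases, deviated by 0.02. With the length trend of each library taken into the fit, the members' median fold change was -0.09, 56 of 74 were below 0 (50.6% of all genes) and 0 passed the test, against 2.53% of all genes higher, 1.9% lower and 4.43% in both directions.

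**Figure D4:**
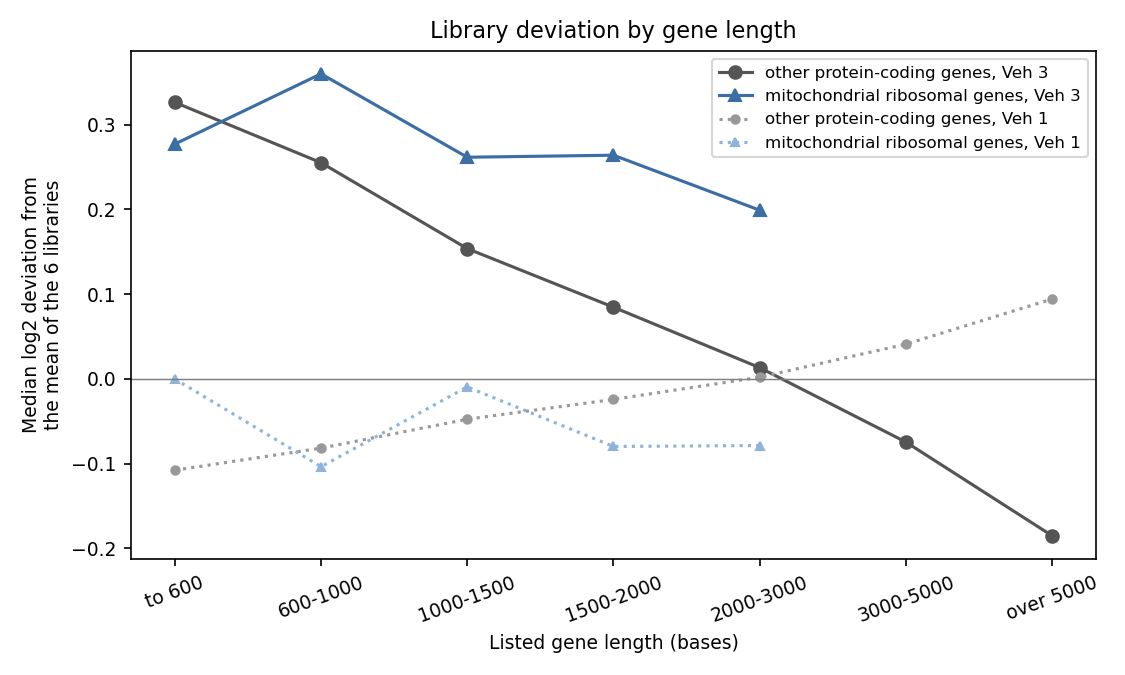
Median log2 deviation of Veh 3 (solid) and Veh 1 (dotted) from the mean of the 6 libraries by class of listed gene length in bases, for the members (triangles) and for other protein-coding genes with a mean of at least 5 CPM (circles). The line of other genes in Veh 3 falls from 0.33 to -0.19 with length, while that of the members stays between 0.20 and 0.36 up to 3000 bases.

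In 7 members (9.46%) all 3 Hcy libraries lay below all 3 Veh libraries, close to the 9.27% of all genes, and in 0 members did they lie above (10.8% of all genes). The 7 were Mrps12, Mrps30, Mrpl2, Mrpl19, Mrpl49, Mrps2 and Mrps10. Mrps12 and Mrps30 were also the 2 with an unadjusted p under 0.05.

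Mrps12 (ENSRNOG00000019949, chromosome 1, 86920680 to 86923575 as the table lists it) encodes a small-subunit protein that lies at the decoding centre. Its level was 25.9, 22.4 and 27.1 CPM in Hcy 1, 2 and 3 and 29.7, 31.5 and 37.9 CPM in Veh 1, 2 and 3. All Hcy values were below all Veh values, with means of 25.1 ± 2.46 and 33.0 ± 4.28 CPM (SD, n = 3 each). The log2 fold change was -0.39 ± 0.12 (SE), with an adjusted p of 0.168 in edgeR's quasi-likelihood test. Without Veh 3 it was -0.28, adjusted p = 0.150 in the same test. DESeq2 gave -0.39 with an adjusted p of 0.0995. Over the fits that left out 1 library each, the estimate stayed between -0.46 and -0.28.

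Mrps30 (ENSRNOG00000012136, chromosome 2, 51042546 to 51049449 in the table), a large-subunit protein found in mitochondria alone, had 33.8, 31.6 and 29.5 CPM in Hcy 1, 2 and 3. In Veh 1, 2 and 3 it had 38.5, 35.6 and 41.3 CPM. The groups did not overlap. Its log2 fold change was -0.28 ± 0.09 (SE), adjusted p = 0.200 in edgeR's test, and -0.23 without Veh 3. This was the gene whose start region holds AAGATGGC 19 bases after the start.

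The other members with the smallest p in the lower direction belonged to the large subunit. Mrpl2, which lies by the catalytic centre, had 18.6, 17.7 and 18.4 CPM in Hcy and 20.2, 18.9 and 24.4 CPM in Veh. Mrpl19, at the interface of the subunits, had 18.2, 18.1 and 18.5 CPM in Hcy and 19.8, 18.6 and 26.0 CPM in Veh. In both genes the Hcy values were tightly grouped and the groups were separated by the lowest Veh value only narrowly. Mrpl27, which reaches into the catalytic centre, had 46.0, 39.1 and 42.7 CPM in Hcy and 42.7, 43.9 and 65.1 CPM in Veh, so that Veh 3 alone stood apart. Its estimate moved from -0.25 ± 0.16 to -0.02 without Veh 3.

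Mrpl34, a small protein of bacterial type, and Mrpl50, Mrpl42, Mrpl43 and Mrpl37, found in mitochondria alone, had estimates of -0.25, -0.22, -0.24, -0.17 and -0.14. The adjusted p of these 5 ran from 0.479 to 0.548 in edgeR's test, and their groups overlapped. Without Veh 3 the same estimates were -0.18, -0.11, -0.07, -0.12 and -0.06.

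Mrpl49, Mrps2 and Mrps10 completed the genes without overlap, and in the first 2 the highest library was Veh 2. Mrps2, a small-subunit protein on the body of the particle, had 34.0, 33.8 and 33.6 CPM in Hcy and 36.4, 36.9 and 35.5 CPM in Veh. This was the tightest of all the members, with the smallest standard error (-0.10 ± 0.07, adjusted p = 0.633, edgeR). Mrpl49 had 13.6, 12.8 and 14.3 CPM in Hcy and 14.5, 16.2 and 14.7 CPM in Veh. Mrps10 had 25.6, 25.9 and 25.2 CPM in Hcy and 26.9, 25.9 and 30.7 CPM in Veh, the groups touching at 25.9 CPM. Both Mrps2 and Mrpl49 overlap a neighbouring gene in the table.

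**Figure D5:**
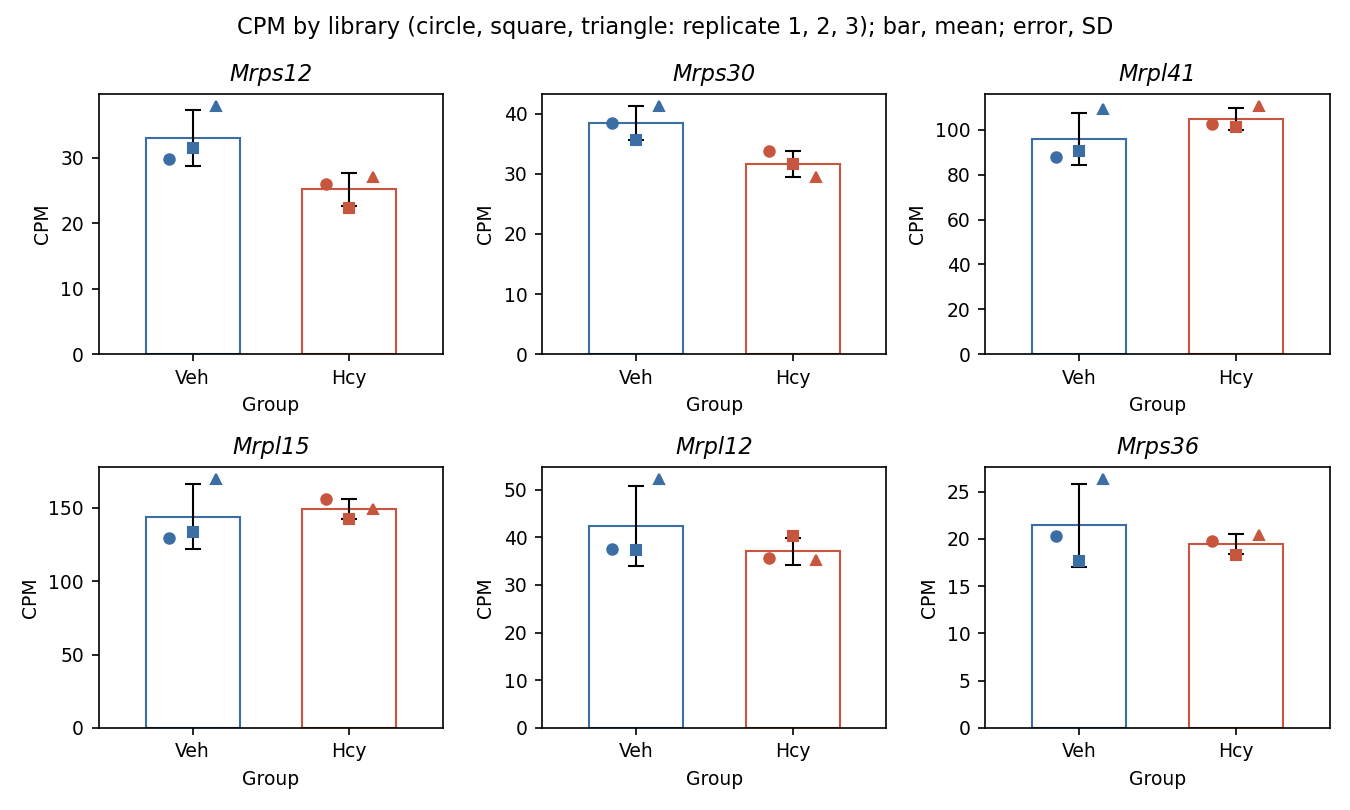
CPM of 6 members in the 3 Hcy and 3 Veh libraries (points), with the group mean (bar) and SD (error bar); axes start at 0. Hcy lies below Veh without overlap for Mrps12 and Mrps30, the groups overlap for Mrpl41, Mrpl15, Mrpl12 and Mrps36, and Veh 3 is the highest Veh point in all 6.

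Among the 72 members with at least 100 counts, the largest estimate in the higher direction was 0.14 (Mrps28), and in the lower direction -0.39 (Mrps12). Without Veh 3 these were at 0.33 and -0.28. Mrpl41 had 103, 101 and 111 CPM in Hcy and 87.8, 90.5 and 109 CPM in Veh. Hcy 3 was the highest and Veh 3 overlapped the Hcy group. The log2 fold change was 0.13 ± 0.10 (SE), adjusted p = 0.638 in edgeR's test, and 0.23 without Veh 3, where its adjusted p of 0.0687 was the lowest of the members. Without Veh 1 the estimate for Mrpl41 was 0.07. Mrps28, a small-subunit protein related to bacterial S1, had 22.3, 18.3 and 21.1 CPM in Hcy and 17.7, 15.1 and 23.3 CPM in Veh. Its estimate of 0.14 ± 0.16 became 0.33 without Veh 3 (adjusted p = 0.174, edgeR), and 0.0062 without Veh 2.

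Mrpl15, a core protein of the large subunit and among the most counted members, had 156, 142 and 149 CPM in Hcy and 129, 134 and 169 CPM in Veh. The 3 Hcy values lay between Veh 2 and Veh 3. The same layout, with Hcy above Veh 1 and Veh 2 but below Veh 3, was seen in Mrpl33 at 71.4, 66.2 and 69.4 CPM in Hcy and 62.1, 60.0 and 85.1 CPM in Veh. Its log2 fold change was 0.00 ± 0.13 with all libraries and 0.18 without Veh 3. Mrpl17 had 181, 161 and 165 CPM in Hcy and 163, 170 and 202 CPM in Veh, with a log2 fold change of -0.08 ± 0.09 that became 0.02 without Veh 3. Mrpl1 had a log2 fold change of -0.24 ± 0.20, which ranged from -0.40 to -0.10 over the fits with 1 library left out (-0.14 without Veh 3).

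Mrps6, of the small-subunit platform, Mrpl16, by the transfer RNA sites, Mrpl3, Mrpl18, Mrpl23 and Mrps22 had estimates between 0.04 and 0.10, with adjusted p of 0.855 to 0.935 in edgeR's test. Without Veh 3 these 6 lay between 0.11 and 0.30, and none passed the test. On the higher side, 6 members had an unadjusted p under 0.05 in that fit, namely Mrpl41, Mrpl15, Mrpl33, Mrps28, Mrps6 and Mrpl16.

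The 2 subunits were described side by side, with no test between them. The median log2 fold change was -0.10 over the 26 small-subunit genes, with 22 below 0, and -0.12 over the 47 large-subunit genes, with 36 below 0. Without Veh 3 both medians were 0.01. Proteins shared with bacteria had medians of -0.11 (16 of the small subunit) and -0.12 (26 of the large), and those specific to mitochondria -0.10 (10) and -0.11 (21). Without Veh 3 the medians of the shared proteins were -0.0090 (7 of 16 above 0) and 0.02 (15 of 26). Those of the specific proteins were 0.07 (8 of 10 above 0) and -0.01 (10 of 21), where 50.6% of all genes lay below 0. None of these genes passed the test, against 2.34% of all genes in both directions.

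Parts of the large subunit hold few genes each and were not compared by a test. In the stalk that recruits translation factors, the 4 members, Mrpl53 included and Mrpl11 not analysed, had a median of -0.16 (-0.0025 without Veh 3). Mrpl12, the flexible protein of that stalk, had 35.5, 40.3 and 35.3 CPM in Hcy and 37.6, 37.4 and 52.1 CPM in Veh, so that the groups overlapped and Veh 3 alone was high. Mrpl54 had -0.20 ± 0.15, and both estimates came within 0.02 of 0 without Veh 3. In the exit tunnel region, Mrpl24 not analysed, the median of 7 was -0.07 (0.04 without Veh 3), with Mrpl47 at -0.29 ± 0.20 and Mrpl22 at -0.14 ± 0.16, and without Veh 3 at -0.06 and 0.07. In the central protuberance the median of 5 was -0.08 (-0.02 without Veh 3), with Mrpl48 at -0.11 ± 0.11 and Mrpl40 at -0.12 ± 0.14. Over the fits that left out 1 library each, these 2 ranged from -0.17 to -0.02 and from -0.27 to -0.05, and were -0.02 and -0.08 without Veh 3. Mrpl40 was 1 of 4 members that were highest in Hcy 1.

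The mitochondrial ribosome also holds proteins with other names, and 5 of these were tested. Their median was -0.14 (0.00 without Veh 3), and 0 passed the test, against 2.34% of all genes. Dap3, a GTP-binding protein of the small subunit first known for a role in cell death, had 67.7, 56.0 and 71.4 CPM in Hcy and 58.9, 63.7 and 73.0 CPM in Veh. The groups overlapped, with a log2 fold change of 0.00 ± 0.11. Gadd45gip1 (-0.18 ± 0.14), Chchd1 (-0.17 ± 0.14), Ptcd3 (-0.14 ± 0.09) and Aurkaip1 (0.05 ± 0.09) were likewise within the spread.

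The machinery that builds and serves the mitochondrial ribosome was described next. Its counts of genes past the test stand against 2.34% of all genes with all libraries. Of 13 translation factors, 0 passed the test and the median was -0.07 (-0.04 without Veh 3). The smallest p was that of Mtif2, the initiation factor that brings the initiator transfer RNA, at -0.38 ± 0.15 (adjusted p = 0.280, edgeR). Its level was 8.55, 8.13 and 8.18 CPM in Hcy and 9.74, 10.0 and 12.7 CPM in Veh. The groups did not overlap, and without Veh 3 the estimate was -0.25. Guf1, a second GTPase of elongation, followed at -0.13 ± 0.10.

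Of 25 genes for assembly of the ribosome and maturation of its RNA, 0 passed and the median was -0.07 (-0.04 without Veh 3). Trub2, a pseudouridine synthase, was at -0.24 ± 0.08 (adjusted p = 0.221, edgeR), with 27.8, 26.0 and 27.2 CPM in Hcy and 31.2, 31.4 and 33.4 CPM in Veh. The groups were separate, and without Veh 3 the estimate was -0.21. Nsun4, a ribosomal RNA methyltransferase, had 29, 0 and 1 counts in Hcy. In Veh it had 0, 0 and 1, so that its counts come from Hcy 1 and no fold is read.

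Of 19 genes of mitochondrial transcription and RNA handling, 16 were below 0 (53.1% of all genes) and the median was -0.14. Without Veh 3, 13 were below 0 (50.6% of all genes) and the median was -0.10. In both fits 0 passed the test, and the direction of the list was not tested. Fastkd1, an RNA-binding protein that controls mitochondrial transcripts, had 14.6, 12.96 and 15.9 CPM in Hcy and 17.3, 20.4 and 20.4 CPM in Veh (-0.42 ± 0.12, adjusted p = 0.153, edgeR). Tfb2m, the factor that melts mitochondrial promoters, had 11.1, 10.0 and 11.9 CPM in Hcy and 15.0, 13.3 and 15.7 CPM in Veh (-0.41 ± 0.13, adjusted p = 0.171, edgeR). In both genes the groups were separate and the estimates without Veh 3 (-0.38 and -0.35) were close to those with it.

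Of 16 mitochondrial aminoacyl-tRNA synthetases, 0 passed and the median was -0.05 with and without Veh 3. Lars2, for leucine, was at -0.33 ± 0.11 (adjusted p = 0.222, edgeR), and Fars2, for phenylalanine, at 0.25 ± 0.11 (adjusted p = 0.340, edgeR). Without Veh 3, Lars2 was at -0.41 with an adjusted p of 0.0463 in the same test, the 1 call of 16 in that fit, where 6.67% of all genes passed. Of 8 regulators of mitochondrial biogenesis, 0 passed, and the median was -0.03 (-0.08 without Veh 3). Myc was at -0.10 ± 0.07 and Esrra at -0.11 ± 0.08, and Ppargc1a, a coactivator of this programme, had 2 counts over all libraries.

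The mitochondrial ribosome translates the 13 protein-coding genes of mitochondrial DNA, and their RNA was measured here, not the proteins made from it. Together they took 39282, 40638 and 41044 CPM in Hcy and 37940, 41442 and 47505 CPM in Veh, again with Veh 3 the highest. None of the 13 passed the test (2.34% of all genes), and the median was -0.09 (0.02 without Veh 3). Mt-nd4, a complex I subunit, was at 0.50 ± 0.13 (adjusted p = 0.0932, edgeR), with 261, 309 and 241 CPM in Hcy and 175, 173 and 225 CPM in Veh. The groups did not overlap, and without Veh 3 the estimate was 0.64 with an adjusted p of 0.00338 in the same test, the 1 call of 13 in that fit, where 6.67% of all genes passed. Mt-co3, a subunit of cytochrome oxidase, was at -0.28 ± 0.10 (adjusted p = 0.242, edgeR), and at -0.15 without Veh 3.

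The members were set beside the 2 gene groups most like them, both taken by gene name. Cytosolic ribosomal proteins (86 tested) had a median of -0.07 and 63 below 0, and nuclear-encoded subunits of oxidative phosphorylation (79 tested) a median of -0.08 and 59 below 0, where 53.1% of all genes lay below 0. Without Veh 3 these medians were 0.12 and 0.08, against 0.01 for the members. In that fit 14 cytosolic ribosomal proteins lay below 0 and 71 above, and 19 oxidative phosphorylation genes below and 60 above, against 33 and 41 members, where 50.6% of all genes lay below 0. The median deviation of Veh 3 was 0.35 in the cytosolic ribosomal proteins, whose median length was 639 bases, 0.33 in the oxidative phosphorylation genes and 0.28 in the members. With all libraries, Rpl30 was the 1 gene of these groups that passed the test (0.77 ± 0.15, adjusted p = 0.0303, edgeR). It was higher in Hcy, against 1.32% of all genes that passed higher in Hcy and 2.34% in both directions. Without Veh 3, 5 cytosolic ribosomal proteins (Rpl30, Rpl22l1, Rpl3, Rpl17 and Rpl13a) and 2 oxidative phosphorylation genes (Atp5if1 and Ndufb3) passed, all higher in Hcy. Atp5if1 is an inhibitor of ATP synthase and not a subunit. In that fit 0 members passed, against 3.48% of all genes higher and 6.67% in both directions. The groups were not tested against the members.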

How the data were processed

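The measured values are read counts per gene, not normalized, as deposited for 6 libraries of poly(A) RNA with each gene's name, position and listed length. The submitters' processing notes name HISAT2 2.2.1, StringTie 2.2.3, featureCounts 2.0.6 and DESeq2 1.42.0. They name mRatBN7.2 as the genome, but the table names no build and its positions reach 282724300 on chromosome 1, so positions are given as listed. A second deposited table, holding the authors' normalized values, fold changes and p-values, was not used here.

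Hcy was tested against Veh in edgeR (version 4.0.16, with limma 3.58.1 under R 4.3.3) by the quasi-likelihood method, on the 14603 genes whose counts summed to 10 or more. Scaling was by TMM, with factors from 0.977 to 1.02. P-values were adjusted after Benjamini and Hochberg over these genes, with a threshold of 0.05, and the Wald test of DESeq2 1.42.0 served as an alternative. Deviations used log2 CPM with a prior count of 2. Length-corrected offsets added a lowess trend (span 0.5) of log2 deviation on log2 length per library, and were chosen after seeing the data. Further alternatives were the size factors of DESeq2, no scaling beyond library totals, different filters on low counts, the replicate block, unadjusted p, protein-coding members with a unique name, and leaving out each library in turn. Of the gene names in the lists, 12 were not analysed here under that name. Standard errors were derived as the absolute log2 fold change over the square root of edgeR's quasi-likelihood F statistic. Intervals are 95%, use those errors with a t distribution and rest on 3 libraries per group. Totals of 14024997 to 16764584 counts set the floors, which cover counting error only.

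The members and lists were chosen with earlier results of these data known. Members named were the 10 with the smallest p in each direction, the 3 highest and 3 lowest in level per length, and examples from each part of the large subunit, and from other lists the 2 with the smallest p. Genes without overlap were named after their values were seen. The tests were also run on simulated data, the length-corrected offsets after the data had been seen.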

Additional observations from a re-analysis of the deposited data

How the results depend on the processing

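No member passed an adjusted p of 0.05 in any alternative, and the lowest adjusted p of a member named was 0.0679, with length-corrected offsets. At an unadjusted p, 2 members were lower and 0 higher, and the number in both directions was 2 without Hcy 1, 3 without Hcy 2, 1 without Hcy 3, 5 without Veh 1, 7 without Veh 2 and 8 without Veh 3, of 74 each. The shares of all genes in these 6 fits were 10.5%, 10.8%, 10.0%, 11.8%, 11.9% and 21%. Genes past the adjusted p, 341 of 14603 over the whole table, numbered 612 with DESeq2, 647 with length-corrected offsets, and 80 to 957 when libraries were left out in turn. The members' median log2 fold change ranged from -0.17 to 0.014 over these fits, turning only without Veh 3, and the summed difference from -278 to 72.9 CPM, turning only without Veh 3. Other scalings left both on the same side of 0, and so did the other filters and tests for the median, the summed level having been recomputed under other scalings and left-out libraries.

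With 1 library left out, 11 of the 30 members chosen by the rule changed sign in at least 1 fit. The lowest and highest estimates were -0.046 and 0.30 for Mrpl16, -0.022 and 0.18 for Mrpl15, -0.023 and 0.15 for Mrpl3, -0.00082 and 0.11 for Mrpl18, -0.088 and 0.22 for Mrpl23, -0.086 and 0.18 for Mrps22, -0.22 and 0.47 for Mrpl53 (fitted values near the floor, not read as a fold), -0.093 and 0.18 for Mrpl33, -0.14 and 0.019 for Mrpl17, -0.32 and 0.013 for Mrpl54, and -0.25 and 0.072 for Mrpl22. Of the other members described, Mrps11, Mrpl46 and Mrps36 also turned, with highest estimates of 0.015, 0.032 and 0.033. Mrps18a, at 0.036 with all libraries, turned as well, with a lowest estimate of -0.077. The cause was not tested.

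Replicate numbers are shared by the groups, but nothing in the labels says that they mark a pairing. The correlations of the deviations of same-numbered libraries were -0.01, 0.11 and 0.05. With the replicate block, 298 genes passed, 0 members passed and the members' median was -0.11. Depth limits Mrpl36 and Mrpl53, which the stricter filter on low counts left out.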
